A study of Mus musculus with 2 samples.

Results

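Myoc-low fibroblasts without subtype marks are the connective tissue cells of the RPE layer preparation (retinal pigment epithelium with choroid and sclera attached) that carry decorin RNA but little myocilin RNA, and little or no RNA of the genes that mark 3 other fibroblast classes. The cells were chosen by their own counts of unique molecular identifiers (UMIs, tags that mark single RNA molecules). Cells with more than 500 UMIs, 200 to 6000 genes and a mitochondrial share under 0.2 were kept, and fibroblasts were those with at least 5 Dcn UMIs, at least 2000 Dcn UMIs per 1000000 UMIs of the cell (CPM) and fewer than 10 Rpe65 UMIs. Among them, the members had fewer than 2 Kera UMIs, fewer than 3 UMIs of Cxcl9 and Cxcl10, fewer than 3 of Tnmd and Chad, and Myoc under 1000 CPM. This selected 13329 of 19821 fibroblasts, out of 36030 deposited cells.

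The study asked how the RPE of C57BL/6J mice responds to a low dose of doxorubicin (Dox), a DNA-damaging chemotherapy drug. Male mice 3 months of age received 1 µl under the retina, either PBS (control) or Dox at 100 ng/µl, and the tissue was taken 7 days later. The 10 eyes of 5 mice were pooled per condition into 1 10x 5′ library, so that neither condition has a replicate. No test between the conditions was made, and treatment, injection and library cannot be told apart. The intervals given below are 95% intervals and cover counting error only.

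Fibroblasts of the choroid and sclera build and maintain the collagen and proteoglycan matrix of the eye wall. Myocilin, encoded by Myoc, is a secreted glycoprotein best known from the trabecular meshwork and from glaucoma, and it is also made by fibroblasts of the sclera. Decorin and lumican, the products of Dcn and Lum, are small leucine-rich proteoglycans that bind collagen fibrils and set their spacing.

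The control library held 7783 members (67.9% of its fibroblasts, 67.0 to 68.7) and the Dox library 5546 (66.4%, 65.3 to 67.4). The intervals of both libraries overlapped. Of the other fibroblasts, 2036 control and 1566 Dox cells were positive for Cxcl9 or Cxcl10, 991 and 787 were Myoc-high without any mark, 698 and 490 were positive for Tnmd or Chad, and 14 and 3 for Kera, where a cell could carry more than 1 mark. The median depth of a member was 4706 UMIs in control and 5385 in Dox, against 5835 and 5974 in the other fibroblasts. Members held 40361632 UMIs in control and 31764386 in Dox. Across both libraries, 441 deposited cell barcodes occurred in both, and 57 barcodes were shared by members of the control and the Dox library.

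**Figure D1:**
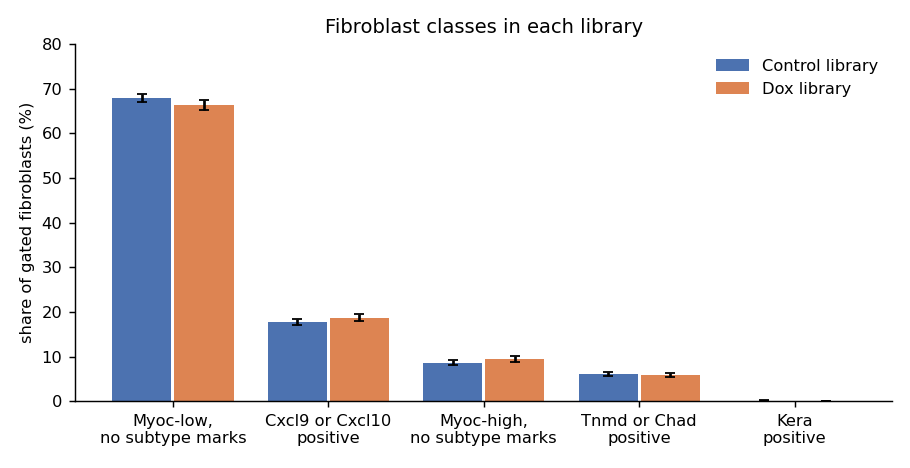
Share of gated fibroblasts (percent, vertical axis) in each of 5 classes, for the control and the Dox library (1 library each), with 95% binomial intervals as bars. The Myoc-low class without marks was the largest in both libraries, at 67.9% and 66.4%.

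Few cells lay at the limits of the selection. At each limit, only cells that met all the other limits were counted. In control, 46 members had Myoc between 900 and 1000 CPM and 24 cells lay between 1000 and 1100, and in Dox the numbers were 25 and 17. For Cxcl9 and Cxcl10, 261 control and 191 Dox members had 2 UMIs, and 188 and 131 excluded cells had 3. For Tnmd and Chad, 110 and 88 members had 2 UMIs, and 58 and 29 excluded cells had 3. With 1 UMI of Kera there were 8 and 1 members, and no cell that met the other limits had exactly 2 UMIs in either library.

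All 8 markers on the fibroblast list were detected in the members. Dcn (chromosome 10, from 97479609 to 97518143 on mm10), on which the cells were selected, reached 9598 CPM in control members and 8720 CPM in the members of the Dox library. The other markers were at 2175 and 2049 CPM for Lum, 514 and 534 CPM for Col1a1 (the alpha 1 chain of type I collagen) and 7410 and 9137 CPM for Igfbp4, an insulin-like growth factor binding protein. Pdgfra, the growth factor receptor common to fibroblasts, was at 215 and 194 CPM. Reference lymphocytes are cells of the same libraries (183 control and 95 Dox) with at least 4 lymphocyte markers and fewer than 5 Dcn UMIs, and should lack these transcripts. In them, Pdgfra stood at 9.35 and 14.8 CPM, Lum at 74.8 and 59.1 CPM and Igfbp4 at 389 and 608 CPM. For these 3 genes, which the selection did not use, the level in members was above that in lymphocytes in both libraries.

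Single cells ranged widely around these levels. Lum had a median of 1871 CPM per cell in control and 1769 in Dox, with highest cells at 15259 and 14873 CPM. Igfbp4 had a median of 5996 CPM in control and 7962 in Dox, and its lower quartile was 2312 against 4317 CPM. Col1a1 had a median of 370 and 390 CPM. Each of these 3 genes was without a UMI in some members of both libraries.

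Myoc (chromosome 1, from 162639155 to 162649693) was, by the selection, at 70.1 CPM in control members and 64.8 CPM in Dox members, against 6380 and 6571 CPM in the Myoc-high class. Of the members, 80.2% in control (79.3 to 81.1) and 80.3% in Dox (79.2 to 81.3) had no Myoc UMI. In the reference lymphocytes, at a median of 3747 and 3906 UMIs, this share was 90.2% (84.9 to 94.1) and 88.4% (80.2 to 94.1), with Myoc at 26.7 and 32.0 CPM.

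Compared with all other fibroblasts, the members showed few differences of 1.5-fold or more. Of 2917 genes with at least 50 UMIs and 50 CPM, the 8 genes of the selection left out, 7 (0.240%) were 1.5-fold higher and 47 (1.61%) 1.5-fold lower in the members in both libraries. This is a description of cells that the selection separated, without a test. The median of all genes was -0.01 in log2 ratio in each library. In cells thinned to 2000 UMIs, 4 genes were higher and 30 lower, and with Myoc under 2000 CPM 3 were higher.

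The genes higher in the members were led by Pappa2, a protease that cleaves insulin-like growth factor binding proteins. It was at 78.3 CPM in control members against 39.5 CPM in the other fibroblasts (log2 ratio 0.99, 0.88 to 1.09), and at 107 against 61.8 CPM in Dox (0.79, 0.70 to 0.89). Rspo3, a secreted enhancer of Wnt signalling, was at 61.4 against 32.0 CPM in control, with log2 ratios of 0.94 in control and 0.64 in Dox. Errfi1, an inhibitor of the epidermal growth factor receptor, was at 579 against 334 CPM (0.79) and 634 against 412 CPM (0.62). Cyp1b1, a monooxygenase whose loss causes congenital glaucoma, was at 116 against 73.5 CPM (0.66) and 144 against 93.8 CPM (0.62). The remaining genes of this kind were Tmem37, Rasd1 and Tiparp, with log2 ratios of 0.64, 0.61 and 0.61 in Dox. Gcc1, Rgs2, Has1, Cpm and Cntfr followed just under the limit in at least 1 library. Has1 makes hyaluronan, and Cntfr is a receptor for ciliary neurotrophic factor.

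The genes lower in the members differed by more. Angptl7, a secreted protein of the trabecular meshwork and sclera, was at 1.04 CPM in control members and 0.724 CPM in Dox members, against 51.4 and 58.3 CPM in the other fibroblasts (log2 ratios -5.63 and -6.33). Chil1, a secreted chitinase-like protein, was at 456 and 495 CPM against 3239 and 2675 CPM (-2.83 and -2.43). Fmod (fibromodulin) was at 28.5 and 27.2 CPM against 213 and 242 CPM. Thbs4 and Comp, both thrombospondins of tendon-like matrix, had log2 ratios of -2.79 and -2.15 in control and -2.70 and -2.35 in Dox. Col12a1, a collagen that decorates type I fibrils, had -1.73 and -1.84, and the Wnt antagonist Sfrp2 -2.03 and -2.21. Cyp2f2, Penk, Ecrg4, Cyp26a1 and the hormone subunit gene Gpha2 completed the 12 lowest genes. Among the 3 large comparison classes, the Tnmd or Chad positive cells had the highest level for 12 of these 12 genes in control and 11 in Dox, the exception being Gpha2.

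**Figure D2:**
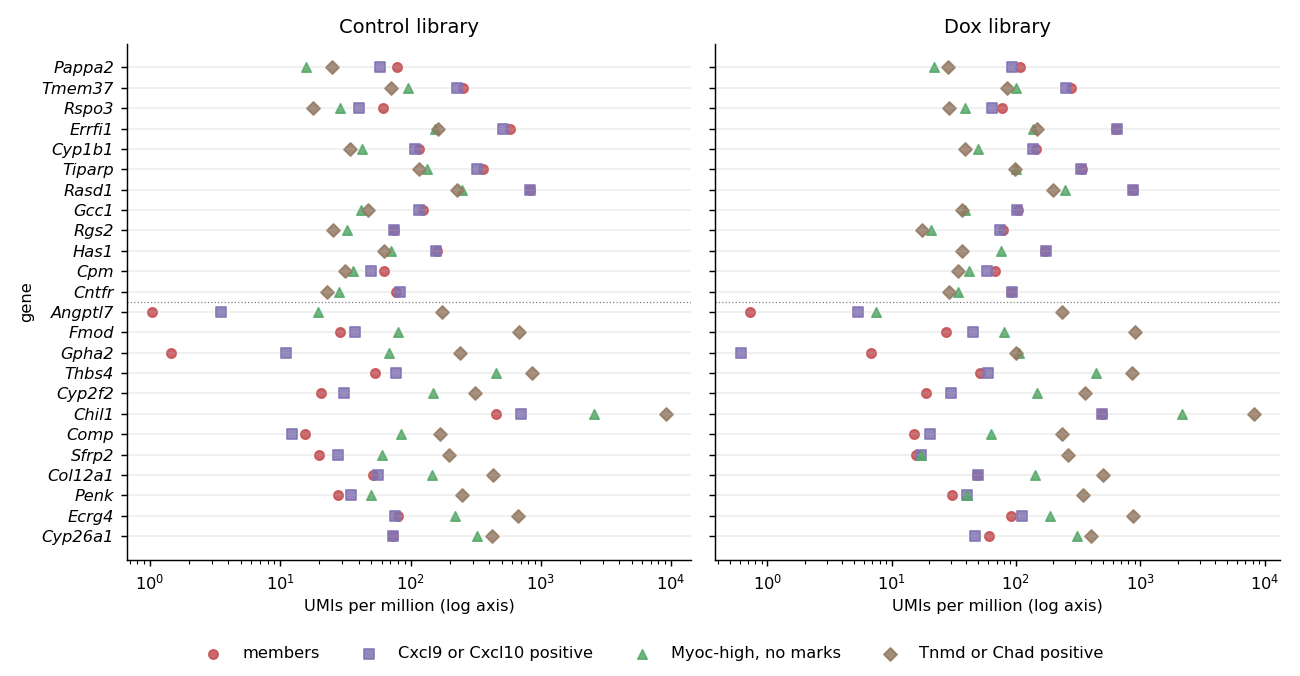
Level of the 12 genes highest (above the dotted line) and the 12 lowest in members relative to other fibroblasts, in CPM on a log axis, by fibroblast class and library. The Cxcl9 or Cxcl10 positive class lay close to the members for most genes (Pappa2 in control: 58.4 against 78.3), while the Myoc-high and the Tnmd or Chad positive classes lay apart.

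The other fibroblasts are a mixture of classes. Against the Cxcl9 or Cxcl10 positive class, of 2865 genes 0 (0%) were 1.5-fold higher in the members and 18 (0.628%) were lower in both libraries. The 18 genes, which were listed after their values were seen, included the interferon-induced Ifit1, Ifit3, Isg15, Rtp4 and Ifi47, the transcription factor Irf1 and the chemokines Ccl2, Ccl4, Ccl11 and Cxcl2. Ifit1 was at 91.7 and 126 CPM in members, and 253 and 284 CPM in that class. Ccl2 was at 422 and 356 CPM, against 867 and 812 CPM. Tnfaip3, which restrains NF-kappaB, Gem, Tifa, Plac8, Ccrl2, Spry1, Tcf21 and Ch25h made up the rest. That class was selected on chemokines induced by interferon, so that these differences are close to the selection itself.

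Against the Myoc-high fibroblasts without marks, the members differed more broadly. Of 3022 genes, 190 (6.29%) were 1.5-fold higher and 98 (3.24%) 1.5-fold lower in both libraries. The median of all genes was -0.08 in control and -0.09 in Dox. The genes named for this comparison were added once the values were known.

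The highest gene in members over Myoc-high cells was Des (desmin, a muscle-type intermediate filament), at 136 CPM in control members and 140 CPM in Dox members against 19.8 and 18.2 CPM. The log2 ratios were 2.78 and 2.94. Alkal2, a ligand of the receptor tyrosine kinases ALK and LTK, was at 234 and 271 CPM against 43.3 and 29.6 CPM (2.43 and 3.20). Pappa2 had 2.32 and 2.29, and the collagen gene Col23a1 2.01 and 2.60. The eosinophil chemokine Ccl11 had 2.42 and 2.46, and the aggrecan-cleaving protease Adamts4 2.02 and 1.90. Further genes of this set were Cp (ceruloplasmin), Lag3, Arrdc3, Ndufa4l2, Errfi1 and Cox4i2. All of the set but Pappa2 and, in control, Errfi1 were higher still in the Cxcl9 or Cxcl10 positive class. Des was at 157 and 182 CPM there, and Alkal2 at 268 and 350 CPM. Des, Ndufa4l2 and Cox4i2 are known from pericytes and smooth muscle. In the control and Dox reference cells of that type, Des was at 561 and 578 CPM, Ndufa4l2 at 248 and 225 CPM and Cox4i2 at 767 and 730 CPM.

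Members also carried some genes usually read as pericyte or endothelial. Kcnj8 and Abcc9, the 2 parts of a vascular ATP-sensitive potassium channel, were at 119 and 69.1 CPM in control members, 147 and 79.3 CPM in Dox members, and 60.7 and 19.8 CPM in control Myoc-high cells. Emcn (endomucin, an endothelial surface protein) had 571 CPM in control members and 606 CPM in Dox members. It was detected in 80.4% (79.5 to 81.3) and 84.1% (83.1 to 85.1) of them. Pecam1, a defining endothelial gene, was at 1.96 and 1.70 CPM and was detected in 0.720% and 0.847%. Emcn in reference lymphocytes was at 16.0 and 46.8 CPM. The pericyte gene Rgs5 went the other way, at 353 and 310 CPM in members against 802 and 912 CPM in Myoc-high cells.

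The lower genes of the same comparison were led by Gpha2, Thbs4 and Cyp2f2, with Thbs4 at 53.4 and 51.7 CPM in members against 453 and 441 CPM. Smoc2, a secreted calcium-binding matrix protein, was at 17.2 CPM in control members against 95.3 CPM, with log2 ratios of -2.47 and -2.26 in control and Dox. Cyp26a1, which degrades retinoic acid, was at 72.9 and 60.9 CPM against 325 and 310 CPM. Igfbp6 was at 378 and 322 CPM against 1611 and 1494 CPM, and Pi16, a marker of progenitor-like fibroblasts, at 157 and 187 CPM against 725 and 794 CPM. Chil1, Comp, Shisa3, Crispld1 and Adamtsl3 were the others.

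The matrix genes were described by lists chosen with these data known. Against the other fibroblasts, where 0.240% of all genes were higher and 1.61% lower, 0 of 5 fibrillar collagen genes tested were 1.5-fold higher and 2 lower in both libraries, with medians of -0.43 and -0.33. The 2 genes were Col1a1 (-0.69 and -0.67) and Col1a2 (-0.65 and -0.60), whereas Col3a1 had 0.01 and -0.03. Of 10 other collagens, 0 were higher and 3 lower, led by Col12a1. Among 5 proteoglycans of the leucine-rich family, 1 (Fmod) was lower, and Lum had positive log2 ratios of 0.37 and 0.26. Against the Myoc-high class, Lum was at 2175 and 2049 CPM compared with 852 and 864 CPM (1.35 and 1.25). Of 11 matricellular genes compared with all other fibroblasts, 0 were higher and 5 lower, again beside 0.240% and 1.61% of all genes. Sparc, which binds collagen during its assembly, was at 1771 and 1917 CPM with log2 ratios of -0.61 and -0.62. Of 12 genes that process or crosslink collagen, none of those tested passed 1.5-fold in either direction, and of 14 elastic fibre genes 2 were lower, among them Mfap4 (-0.68 and -0.66).

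Genes of progenitor-like fibroblasts were mostly lower in members than in Myoc-high cells, with 1 of 11 higher and 7 lower, beside 6.29% and 3.24% of all genes, and medians of -0.81 and -0.71. Pi16, Igfbp6, Ly6a (-1.11 and -1.05) and Cd34 (-0.83 and -0.65) were among the 7, and Has1 was the 1 higher gene (1.17 and 1.16). Of 10 genes on a list for meningeal-type fibroblasts, 2 were higher and 3 lower. Tbx18, a transcription factor of mural and mesenchymal cells, had 1.76 and 2.09, while Foxc2 (-1.46 and -1.67), Foxd1 (-1.37 and -1.50) and the retinoid carrier Crabp2 (-1.21 and -1.16) were lower.

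Many chemokine and immediate early genes passed 1.5-fold against the Myoc-high class, where 6.29% of all genes were higher and 3.24% lower. Of 9 chemokine and cytokine genes tested, 6 were 1.5-fold higher and 0 lower, with medians of 1.08 and 1.62. Cxcl12, the ligand of Cxcr4, was at 1102 and 1128 CPM against 321 and 367 CPM (1.78 and 1.62). Cxcl1, a neutrophil chemokine, was at 2517 and 2355 CPM (1.26 and 1.28), and Il6 at 74.5 and 72.3 CPM (1.37 and 1.35). Of 24 immediate early genes, which respond to stimuli within minutes, 14 were higher and 0 lower, with medians of 0.69 and 0.68. Nr4a1 was at 3642 and 3928 CPM (1.23 and 1.41), Zfp36 at 7799 and 7681 CPM (1.18 and 1.23) and Btg2 at 2389 and 2311 CPM (1.58 and 1.72). Fos itself, at 11417 and 12081 CPM, was short of 1.5-fold with 0.49 and 0.51. Such genes also respond to tissue dissociation, whose part in these levels was not tested. Against all other fibroblasts, where 0.240% of all genes were higher and 1.61% lower, 0 of the 9 chemokine and cytokine genes (medians of 0.02 and 0.03) and 0 of the 24 immediate early genes (0.36 and 0.27) passed in either direction.

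The same all-gene shares, 6.29% higher and 3.24% lower, stand beside the counts of the other lists. Of 8 p53 targets tested against the Myoc-high class, 2 were higher, Btg2 and Cdkn1a (a cell cycle inhibitor, 0.91 and 0.98), and 1 lower, Perp (-0.77 and -1.01). Of 13 interferon response genes, 3 were higher (Irf1 with 0.82 and 0.97 among them). Of 23 genes of oxidative stress and metallothioneins, 4 were higher, with Mt1 at 5925 and 5781 CPM (0.76 and 0.80), and 1 was lower, Gpx1 (-0.68 and -0.68). Of 10 prostaglandin and steroid genes, 3 were higher, including Ptgs2 (1.22 and 1.33), and 1 was lower, the prostacyclin synthase Ptgis (-1.25 and -1.28). None of the 38 oxidative phosphorylation genes or the 36 ribosomal protein genes tested passed in either direction.

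The members were clustered on their own, without the genes of the selection, the mitochondrial genes and the 2791 genes that differed 1.25-fold or more between the libraries. This gave 8 subclusters. The genes that lead them define them and are given as a description. None had a marker of fibroblasts among its 10 leading genes, and they are left unnamed. The 3 largest held 12477 of the 13329 cells (93.6%).

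Subcluster 1 (6104 cells) was led by Coch, Ptx3, Alkal2, Lamc3 and Pcsk1n. Alkal2 was at 483 CPM in it against 95.3 CPM in the other members, and Coch (cochlin, a matrix protein of the inner ear and the eye) at 91.9 against 11.2 CPM. Des, at 224 CPM, Pappa2, at 138 CPM, and Cyp1b1, at 201 CPM, had their highest levels among the 3 large subclusters there. Subcluster 2 (3223 cells) was led by Stmn2, Lmcd1, Adamtsl3, Adora1 and Ptgis. Ptgis was at 410 against 69.4 CPM and Chil1 at 1061 against 196 CPM. Its median depth of 6879 UMIs was above the 4423 of subcluster 1 and the 4232 of subcluster 3. Rgs5, at 569 CPM, and Igfbp4, at 10938 CPM, were also highest there among the 3. Subcluster 3 (3150 cells) was led by Col15a1, Crispld1, Angptl1, Htra3 and Nupr1. Apod, a lipid carrier of many resting fibroblasts, was at 4751 against 1060 CPM, and Nupr1, a stress-induced chromatin protein, at 810 against 150 CPM. Aldh1a2, which makes retinoic acid, was at 344 CPM in subcluster 3, 190 CPM in subcluster 2 and 132 CPM in subcluster 1.

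A small subcluster 6 (135 cells) was led by Dpt, Sfrp4, Ly6c1, Nts and Sfrp2. Pi16 was at 5576 CPM there, Clec3b at 2100 CPM and Cd34 at 1167 CPM. These are known genes of the adventitial progenitor-like fibroblasts found in many organs. Of the 8 subclusters it had the highest levels of Col1a1, Col1a2 and Col3a1, with Col1a1 at 2540 CPM against 397 CPM in subcluster 1 and Col3a1 at 2685 against 297 CPM. It held 1.04% (0.827 to 1.29) of control and 0.974% (0.732 to 1.27) of Dox members.

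The remaining 717 cells, in subclusters 4, 5, 7 and 8, were led by genes of other cell types or by nuclear RNA. Subcluster 4 (378 cells) had Pmel, a melanosome protein gene, at 3419 CPM and Malat1, a nuclear RNA, at 32901 CPM. Subcluster 5 (137 cells) was led by the immunoglobulin genes Igkv4-91 and Ighv1-55 and by Gzma, a granzyme of cytotoxic lymphocytes, at 248 CPM, and it had the T cell gene Cd3d at 110 CPM and the macrophage gene Lyz2 at 2159 CPM. Both immunoglobulin genes were at 0 CPM in its Dox cells, and only 6 control members held UMIs of Igkv4-91. Subcluster 7 (119 cells) had the smooth muscle genes Acta2, at 8477 CPM, and Myh11, at 1937 CPM. Subcluster 8 (83 cells) had Plvap at 2646 CPM and Pecam1 at 180 CPM, both endothelial. Dcn in these 4 was between 6140 and 6203 CPM, against 6755 CPM in subcluster 1, 10888 CPM in subcluster 2, 12311 CPM in subcluster 3 and 11851 CPM in subcluster 6. No doublet caller was run, and whether these cells are doublets was not tested. They made up 6.37% (5.84 to 6.94) of control and 3.98% (3.49 to 4.53) of Dox members.

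**Figure D3:**
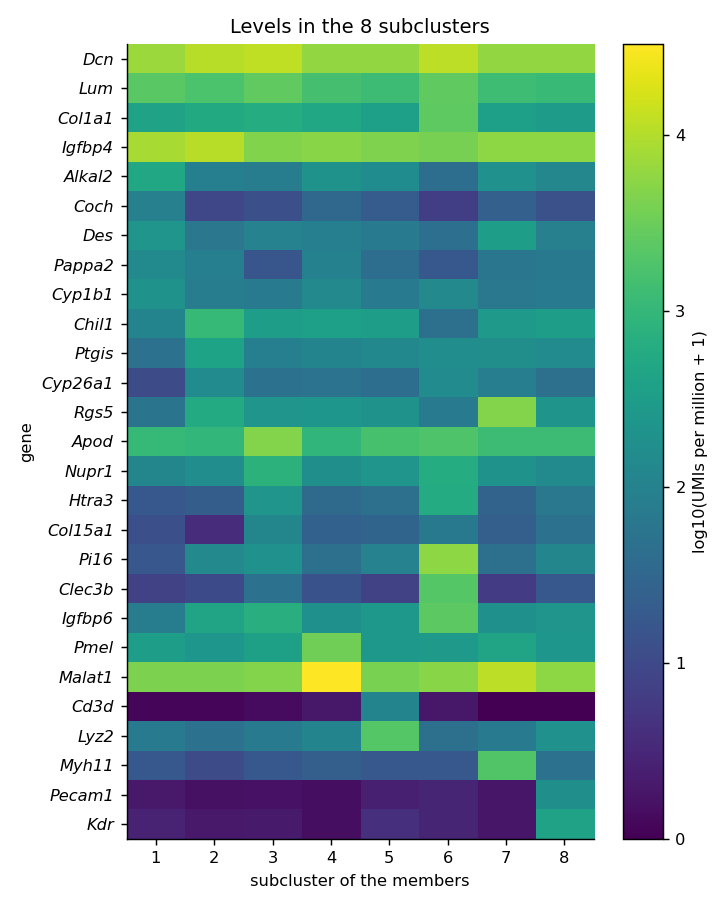
Level of 27 genes in the 8 subclusters of the members, as log10 of CPM plus 1, with both libraries summed. Subcluster 6 stood out for Pi16 and Clec3b, and subclusters 4, 5, 7 and 8 for Pmel, Lyz2, Myh11 and Kdr.

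The libraries differed in the shares of the large subclusters. Subcluster 1 held 43.1% (42.0 to 44.2) of control members and 49.5% (48.2 to 50.9) of Dox members, subcluster 2 22.4% (21.5 to 23.4) and 26.7% (25.5 to 27.9), and subcluster 3 27.1% (26.1 to 28.1) and 18.8% (17.8 to 19.9). The intervals of the 2 libraries did not overlap for any of the 3. With all variable genes as features, where genes that differ between the libraries were not left out, the Col15a1-led subcluster held 19.5% of control and 8.84% of Dox members. Marker pairs gave shares that do not rest on clusters, although the genes come from them. Members with at least 2 UMIs of Col15a1 and Htra3 in sum were 11.4% (10.7 to 12.1) in control and 7.63% (6.94 to 8.36) in Dox. After each cell was thinned to 2000 UMIs, which left out 388 control and 230 Dox members as too shallow, they were 5.08% (4.59 to 5.61) and 3.31% (2.85 to 3.83). The share in reference lymphocytes before thinning was 0.546% in control (1 of 183, 0.0138 to 3.01) and 0 of 95 in Dox (0 to 3.81). After thinning it was 0 of 178 in control (0 to 2.05) and 0 of 92 in Dox (0 to 3.93). The last upper limit lay above the interval of the thinned Dox members. Their share could therefore not be told apart from the lymphocyte background at this number of cells. For Chil1 and Ptgis, the marks of subcluster 2, the shares were 28.7% and 36.9% before and 14.6% (13.8 to 15.5) and 16.3% (15.3 to 17.3) after thinning, with overlapping intervals, beside 2.19% and 8.42% before and 1.69% and 1.09% after thinning in lymphocytes. For Alkal2 and Tcf21 they were 27.9% and 31.6% before thinning and 14.6% (13.8 to 15.4) and 15.7% (14.7 to 16.7) after thinning, where the intervals overlapped too, beside 0.546% and 1.05% of lymphocytes before thinning. Spread between mice was not measured, since each library is a single pool.

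**Figure D4:**
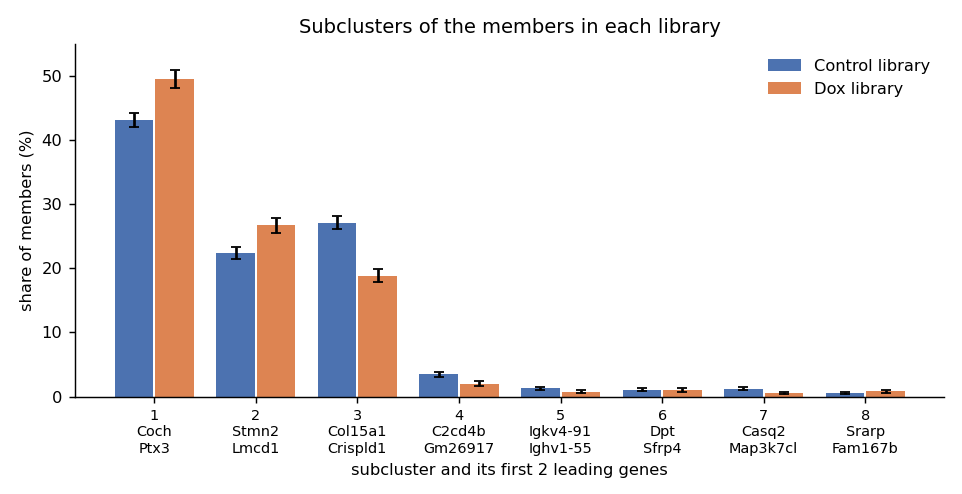
Share of the members (percent, vertical axis) in each of 8 subclusters, for the control and the Dox library (1 library each), with 95% binomial intervals as bars. Subcluster 3, led by Col15a1 and Crispld1, was at 27.1% in control and 18.8% in Dox.

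Between Dox and control members, 39 of 2979 genes differed 1.5-fold. Of these, 10 (0.336%) were higher and 29 (0.973%) lower in Dox. In the other fibroblasts, of 2987 genes 8 (0.268%) were higher and 29 (0.971%) lower. The median of all genes was 0.01 in members. Col1a1 had a log2 ratio of 0.06, Mgp 0.05, Cxcl12 0.03, Des 0.04 and Pdgfra -0.15. None of 5 fibrillar collagen, 7 p53 target, 13 interferon, 24 immediate early and 7 complement genes tested passed 1.5-fold. Lists this short hold few such genes at the all-gene shares of 0.336% and 0.973%. In other lists, 1 of 9 retinoic acid genes was higher. Lower were 1 of 11 matricellular, 1 of 8 IGF system, 1 of 9 contractile and 1 of 16 growth factor receptor genes.

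The 10 higher genes were all at least 5-fold above the members in reference RPE cells (1121 control and 1357 Dox cells with at least 10 Rpe65 UMIs). For such folds, the level of each cell type was that of the library in which it was higher. Only 187 of the 2979 tested genes were so far above the members in any other cell type. A2m, a protease inhibitor of the acute phase, was at 33.1 CPM (31.3 to 34.9) in control and 85.8 CPM (82.6 to 89.1) in Dox members, a log2 ratio of 1.37 (1.28 to 1.47). Its level in RPE cells was 237 and 766 CPM, and in lymphocytes 22.7 and 101 CPM. Serpina3n, also a secreted protease inhibitor, was at 57.9 and 139 CPM (1.27, 1.19 to 1.34), with 76.8 and 1242 CPM in RPE cells and 14.7 and 88.6 CPM in lymphocytes. It was 5-fold above the members in RPE cells of the Dox library only. A UMI of Serpina3n was found in 17.7% of control and 45.4% of Dox members. Ttr (transthyretin, a retinol and thyroxine carrier) was at 2385 and 3743 CPM (0.65), with 3157 and 4895 CPM in lymphocytes. Cox8b, Pon1, Krt18, the retinol dehydrogenase gene Rdh5, Cltrn, Atp1b1 and Trf (transferrin) had log2 ratios between 0.60 and 0.83. All 10 genes were also higher in Dox in the reference lymphocytes, with a median log2 ratio of 0.68 there and 0.70 in members. The visual cycle gene Rgr and the unnamed gene CAAA01147332.1, both at 0.48, came next, short of 1.5-fold.

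Of the 29 lower genes, 27 were at least 5-fold above the members in another cell type, 19 in melanocytes, 6 in macrophages and 2 in smooth muscle or pericytes. Pmel was at 600 CPM (592 to 608) in control members and 135 CPM (131 to 139) in Dox members, a log2 ratio of -2.15 (-2.20 to -2.10). Dct, which makes melanin precursors, was at 1001 and 282 CPM (-1.83), and in lymphocytes at 1001 and 323 CPM. Slc45a2, Tyrp1, Syt4, Ednrb, Mlana, Mlph, Cited1 and Myo5a, further genes of pigment cells, had between -2.12 and -1.34. In the reference melanocytes themselves, the median log2 ratio of the 29 genes was -0.14, against -1.25 in members and -1.31 in lymphocytes, and 26 of 28 with a ratio were lower in lymphocytes too. Summed over the 6 melanocyte markers, of which 0 were without a UMI and Dct was the most abundant, the level was 2470 and 640 CPM in members and 2527 and 655 CPM in lymphocytes. The 7 RPE markers, with Ttr the most abundant, summed to 3505 and 5311 CPM in members and 4691 and 6959 CPM in lymphocytes. Macrophage markers, with Lyz2 the most abundant, summed to 244 and 125 CPM in members and 168 and 91.1 CPM in lymphocytes, and smooth muscle or pericyte markers, with Acta2 the most abundant, to 1199 and 897 CPM and 198 and 180 CPM. Of the members, 5.83% in control (5.32 to 6.38) and 2.27% in Dox (1.90 to 2.70) carried several markers of another type. For melanocytes the limit was instead 10000 CPM of the markers in sum, which 2.66% of control and 0.307% of Dox members reached. The part of free RNA and of mixed droplets in the members' differences was not tested further.

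**Figure D5:**
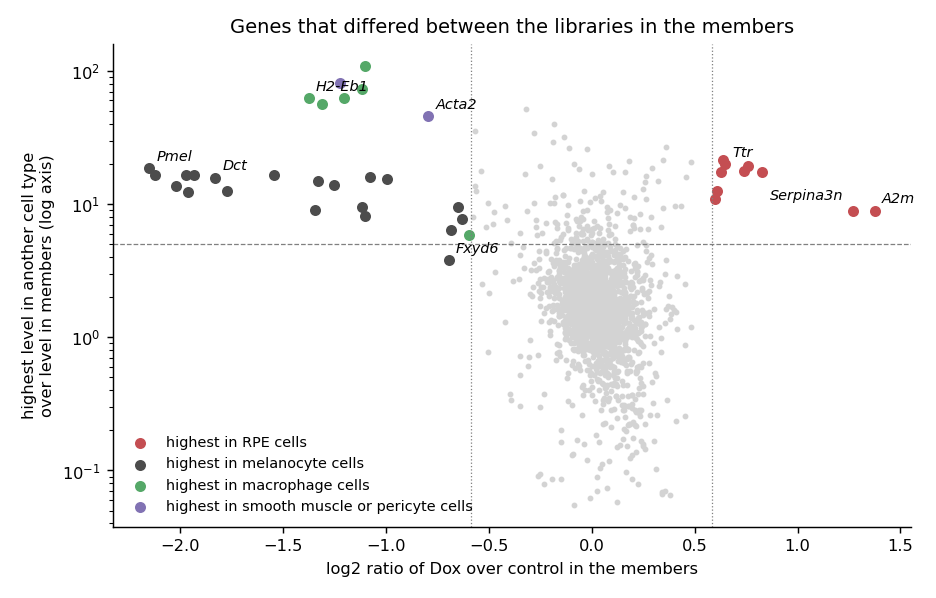
Each point is 1 tested gene, with the log2 ratio of Dox over control in the members on the horizontal axis and, on a log axis, the highest level in another cell type over that in the members. Both levels are those of the library in which they were higher. Coloured points passed 1.5-fold (dotted lines), and all but Fxyd6 lay above 5-fold (dashed line). Igkv4-91, without a UMI in Dox, is not drawn.

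The 2 lower genes outside this pattern were Fxyd6 and Igkv4-91. Igkv4-91, an immunoglobulin light chain segment, had 3352 UMIs in control members (83.0 CPM) and 0 in Dox members. With the Dox count set to the floor of 3 UMIs it was 879-fold lower. The upper limit of the log2 ratio's counting interval was -9.48. All 3352 UMIs lay in 6 cells, so that the ratio does not describe the members at large. Fxyd6, a regulator of the sodium pump, was at 158 and 97.7 CPM (-0.69), and in melanocytes 3.81 times the members' level. The class II antigen presentation gene H2-Eb1, at 76.6 and 29.5 CPM (-1.37), had 73.2% of its control UMIs in 20 cells. Within the 3 largest subclusters alone its log2 ratio was 0.26. Acta2 was at 447 and 258 CPM (-0.79), with 16.9% and 34.4% of its UMIs in 20 cells.

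Among the 2792 genes not 5-fold higher in another cell type, 28 were 1.25-fold higher and 17 1.25-fold lower in Dox members, and 0 and 2 passed 1.5-fold. Examples were Ccn1, a matricellular protein, at 1168 CPM in control members and 1601 CPM in Dox members (0.46, 0.44 to 0.47), Pappa2 (0.45, 0.38 to 0.52) and Ifit1, at 91.7 and 126 CPM (0.46, 0.39 to 0.52). Apod (-0.39), Tcf21 (-0.39) and Nupr1 (-0.35) were lower, of which Apod and Nupr1 are leading genes of subcluster 3. Igf1, a growth factor, was at 55.6 and 36.9 CPM (-0.59, -0.70 to -0.49) and is among the 29 lower genes, being 5.90 times higher in macrophages. In the other fibroblasts, which come from the same 2 libraries, the log2 ratios were 0.22 for Ccn1, 0.64 for Pappa2, 0.19 for Ifit1 and -0.41 for Apod. These ratios have no estimate of the spread between animals.

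Among the 3 large subclusters, the most genes passed 1.5-fold in subcluster 3. There, 35 of 3057 genes were higher in Dox and 32 lower, 24 and 11 of them not 5-fold higher in another type. The 24 included Ccn1, Ccn2, Ogn, Cd248, Rspo3, Ndnf, Mgarp and Fndc1. The clustering with all variable genes as features did not leave out genes that differ between the libraries. It placed 66.6% of the control cells of subcluster 3 and 44.3% of the Dox cells in the Col15a1-led subcluster. In one whose leading genes include Ndnf, Mgarp and Fndc1 it placed 12.4% and 29.9%. A difference in level within these cells and a difference in their mixture cannot be told apart in these counts. In subcluster 1, 12 of 2911 were higher and 20 lower, of which 1 each, Ifit1 and Fxyd6, was outside that pattern. In subcluster 2, 8 of 3024 were higher and 21 lower, with 0 and 5 outside it, the latter Hk2, Cish, Ccl2, Ccl11 and Rcan1. These genes were listed after their values were seen.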

How the data were processed

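Per the labels, cells of the RPE layer were captured with a 10x 5′ kit, 1 library per condition. The submitters' processing notes list Cell Ranger 4.0.0 and mm10, and the authors deposited raw counts of UMIs for 32285 genes per cell. From these counts, cells were selected by the limits given above, and UMIs were summed per group and divided by the group's total (CPM). Intervals are exact Poisson (CPM), Clopper-Pearson (shares) and conditional binomial (ratios) at 95%. Genes with at least 50 UMIs over both groups and 50 CPM in 1 were compared, at 1.5-fold, without a test. Named genes were the 12 highest and 12 lowest per comparison (members against others: by the smaller ratio of both libraries), members of 34 gene lists with at least 20 UMIs, and the 8 leading genes of each subcluster. The members and lists were chosen with earlier results of these data known. A value in a group at 0 was set to 3 counts for ranking. Reference cells had at least 4 markers of 1 other type (5 for smooth muscle, 10000 CPM in sum for melanocytes) and fewer than 5 Dcn UMIs. Doublets were limited only by the maximum of 6000 genes. Members were clustered with 2000 variable genes, 20 components, 20 neighbours and leidenalg 0.10.2 at resolution 0.3 (Python 3.11.15, numpy 2.4.6, scipy 1.17.1, scikit-learn 1.9.0). Positions are from GENCODE vM21. The ratio calculation was run on simulated summed counts, with genes either unchanged or changed by more than 1.5-fold. No spread between cells or animals was simulated, so that the run checks the calculation and not the 1.5-fold calls.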

Additional observations from a re-analysis of the deposited data

Results flagged for a closer look

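Of 2876 genes tested in both populations, 36 had counting intervals on opposite sides of 0 between members and other fibroblasts for Dox over control, and 14 of them belonged to the named genes or the gene lists. The difference itself was not tested, and each population is 1 library per condition. The log2 ratios in members and in the other fibroblasts, in that order, were -0.05 and 0.05 for Btg2, 0.12 and -0.28 for Chil1, -0.03 and 0.08 for Ier5, -0.04 and 0.09 for Atf3, 0.04 and -0.12 for Sdc4, 0.03 and -0.03 for Rps20, 0.09 and -0.07 for Pdpn. They were -0.10 and 0.06 for Cxcl1, 0.03 and -0.03 for Rplp0, -0.02 and 0.13 for Zfp36, -0.09 and 0.03 for Lum, -0.11 and 0.12 for Ndufa4l2, -0.08 and 0.02 for Irf1, -0.04 and 0.06 for Fbln1. All of these were under 1.5-fold in both populations, with the widest gap at Chil1, a gene that the Tnmd or Chad positive class carried most. Chil1 was at 456 and 495 CPM in control and Dox members, at 252 and 890 CPM in reference RPE cells and at 28.0 and 83.7 CPM in reference lymphocytes, where it was higher in Dox by more CPM than in the members. The part of free RNA in the members' difference was not tested.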

How the results depend on the processing

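No paired analysis was possible because each condition has 1 library, with no replicate numbers to share. Of the main counts and shares, 53 values under alternatives stayed within the limits set and 25 moved. The members' share of fibroblasts was 66.9% in control with cells of 3 or more UMIs of another type's markers left out, 66.4% and 65.1% in control and Dox with Dcn at 4000 CPM or more, 69.8% and 68.5% with Myoc under 2000 CPM, and 65.3% and 64.2% with Myoc under 500 CPM. Genes higher in members than in other fibroblasts, 7 in the main setting, were 0 at 2-fold, 27 with the cells of 3 or more such UMIs left out, 3 with Myoc under 2000 CPM, 190 against the Myoc-high class alone, 184 with at least 10 UMIs and no CPM limit, and 4 in cells thinned to 2000 UMIs. Genes lower in members, 47 in the main setting, were 20 at 2-fold, 98 against the Myoc-high class, 341 with at least 10 UMIs and 30 after thinning. Genes higher in Dox members, 10 in the main setting, were 2 at 2-fold, 100 with the cells of 3 or more such UMIs left out, 630 with at least 10 UMIs, and 0 with genes 5-fold above members in another type left out. Genes lower in Dox members, 29 in the main setting, were 69, 1359 and 2 under the last 3 of these settings, and 18 in the 3 largest subclusters alone. The setting with 3 or more UMIs left few members, 186 in control and 832 in Dox. Leaving out genes 5-fold above members elsewhere, and cells outside the 3 largest subclusters, were chosen after seeing the data. H2-Eb1 turned from -1.37 to 0.26 in the 3 largest subclusters alone, and its control UMIs lay mostly in 20 cells. Among single genes, lists and marker pairs, 1552 values stayed, 267 moved and 1 reversed. Depth limits shares of cells with a UMI. Those of marker pairs are given after thinning as well, while those of single genes are given without thinning only.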
